A study of Rattus norvegicus with 43 samples.

Results

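The lysosome and autophagy genes described here are 9 genes of the rat A7r5 line: Psap, Ctsb, Ctsd, Ctsl, Ctsz, Lamp1, Lamp2, Gabarapl1 and Sqstm1. They were taken by symbol from the 31099 probe sets (groups of short probes that read 1 transcript) of an Affymetrix rat expression array. The 9 genes hold 17 of these probe sets, and each gene is represented by its brightest probe set (highest mean of the 43 arrays). All 9 representatives passed the filter on low values, in every array, and entered the fit of 9095 genes. Values are log2 expression values, so a difference of 1 is a doubling. They compare a gene between samples and do not rank the genes by abundance.

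A7r5 is an established smooth muscle line from rat aorta. The cells were kept in a custom medium with 2.5, 10 or 100 ng/ml of folic acid, named deficient, sufficient and excess in the labels. RNA was taken after 7, 14 or 21 days of culture. At day 7 there were 4 arrays of deficient, 4 of excess and 5 of sufficient medium, and at days 14 and 21 there were 5 arrays of each medium. All groups are 1 cell line. Nothing in the labels ties the replicates of a group to separate cultures, and the p-values then reflect only how far these arrays differ from each other, which can be technical spread.

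Lysosomes are acid compartments in which proteases, glycosidases and lipases digest material that arrives by endocytosis or by autophagy. In autophagy a membrane closes around part of the cytoplasm, carries ATG8 proteins on its surface, takes up cargo through receptors that bind them, and fuses with a lysosome. Many of the genes are switched on together by TFEB and its relatives, which bind E-box sequences in their promoters, and smooth muscle cells use the pathway when they change between contractile and dividing states.

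The promoters of the 9 genes were searched for that E-box, since it is the best known sequence that lysosomal genes share. RefSeq promoter windows of the GRCr8 assembly, 250 bases before to 50 bases after the annotated start, were matched for 7 of the 9 genes (Ctsd, Ctsl, Ctsz, Lamp1, Lamp2, Gabarapl1 and Sqstm1). The letters CACGTG read the same on both strands. They were present in 2 of the 7 windows, those of Lamp1 and Ctsd, which are shown with CACGTG in capitals. The Lamp1 window lies at chr16:83075014-83075313 on the minus strand, inside the annotated span of the gene, and the Ctsd window at chr1:206968772-206969071 on the minus strand.
Lamp1 promoter: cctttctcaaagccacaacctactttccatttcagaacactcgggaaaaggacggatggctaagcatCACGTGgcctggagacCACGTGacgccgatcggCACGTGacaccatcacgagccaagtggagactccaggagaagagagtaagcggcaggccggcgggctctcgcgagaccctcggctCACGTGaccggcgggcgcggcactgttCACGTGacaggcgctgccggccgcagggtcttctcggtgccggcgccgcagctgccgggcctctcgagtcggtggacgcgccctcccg
Ctsd promoter: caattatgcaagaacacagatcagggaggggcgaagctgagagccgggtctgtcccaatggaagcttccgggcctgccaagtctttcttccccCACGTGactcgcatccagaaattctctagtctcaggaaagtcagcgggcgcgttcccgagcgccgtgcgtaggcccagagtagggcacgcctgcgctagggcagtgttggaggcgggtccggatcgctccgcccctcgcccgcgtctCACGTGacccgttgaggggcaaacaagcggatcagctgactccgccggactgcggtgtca
Lamp1 held 5 copies, whose first bases lay 183, 167, 150, 65 and 38 bases before the start, and Ctsd held 2, at 157 and 10 bases before it. All 7 copies were part of the longer core TCACGTG or its reverse complement CACGTGA, which overlaps the shorter motif by definition. Of all 33469 windows in the table, 6.42% held CACGTG, 0.52% held 2 or more copies, and 1 window, that of Lamp1, held 5 or more. The longer core was in 3.2% of all windows. The AP-1 element TGACTCA, with its reverse complement TGAGTCA, was in 0 of the 7 windows and in 4.63% of all windows. Among 118 windows matched for other lysosome and autophagy genes, 23 (19.5%) held CACGTG. These matches describe letters in a window and are no measurement of binding. Both genes with the motif had their lowest group mean in excess medium at day 7 and their highest in sufficient medium at day 21. The range was 0.53 for Lamp1 and 0.89 for Ctsd. Psap and Ctsb, which had no matched window, had the same lowest and highest groups. Ctsl, Lamp2 and Gabarapl1, whose windows lacked the motif, were also lowest in excess medium at day 7. These groups therefore do not set the genes with the motif apart.

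The samples carried the markers of smooth muscle. All 10 smooth muscle markers passed the filter, with group means of 13.6 to 14.4 for Acta2, smooth muscle actin, and 13.9 to 14.3 for Tagln, transgelin. Of the macrophage markers, which matter because macrophages are rich in lysosomes, 9 of 11 did not pass the filter, among them Ptprc, Csf1r and Cd68, whose highest array value was 2.52. Of 7 endothelial markers on the array, 6 did not pass. Of 11 skeletal muscle markers 7 passed, while Myog, Actn2, Tnnt3 and Mymk did not. Group means were 11.3 to 12.5 for Myh1, 10.6 to 12.7 for Tnnc2 and 6.0 to 9.2 for Acta1. One measure of the arrays moved with medium. The 3′ probe set of beta-actin minus its 5′ probe set, which grows as RNA is degraded, was above 2 on 8 arrays: 3 of excess medium at day 14, 3 of excess medium at day 21 and 2 of sufficient medium at day 7. The titles give serials 53 to 56 to 4 of those excess arrays, 2 at day 14 and 2 at day 21, with differences of 2.36 to 2.80. Because these arrays hold excess medium only, array series and medium cannot be told apart there, and the excess results of days 14 and 21 are also given without them.

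**Figure D1:**
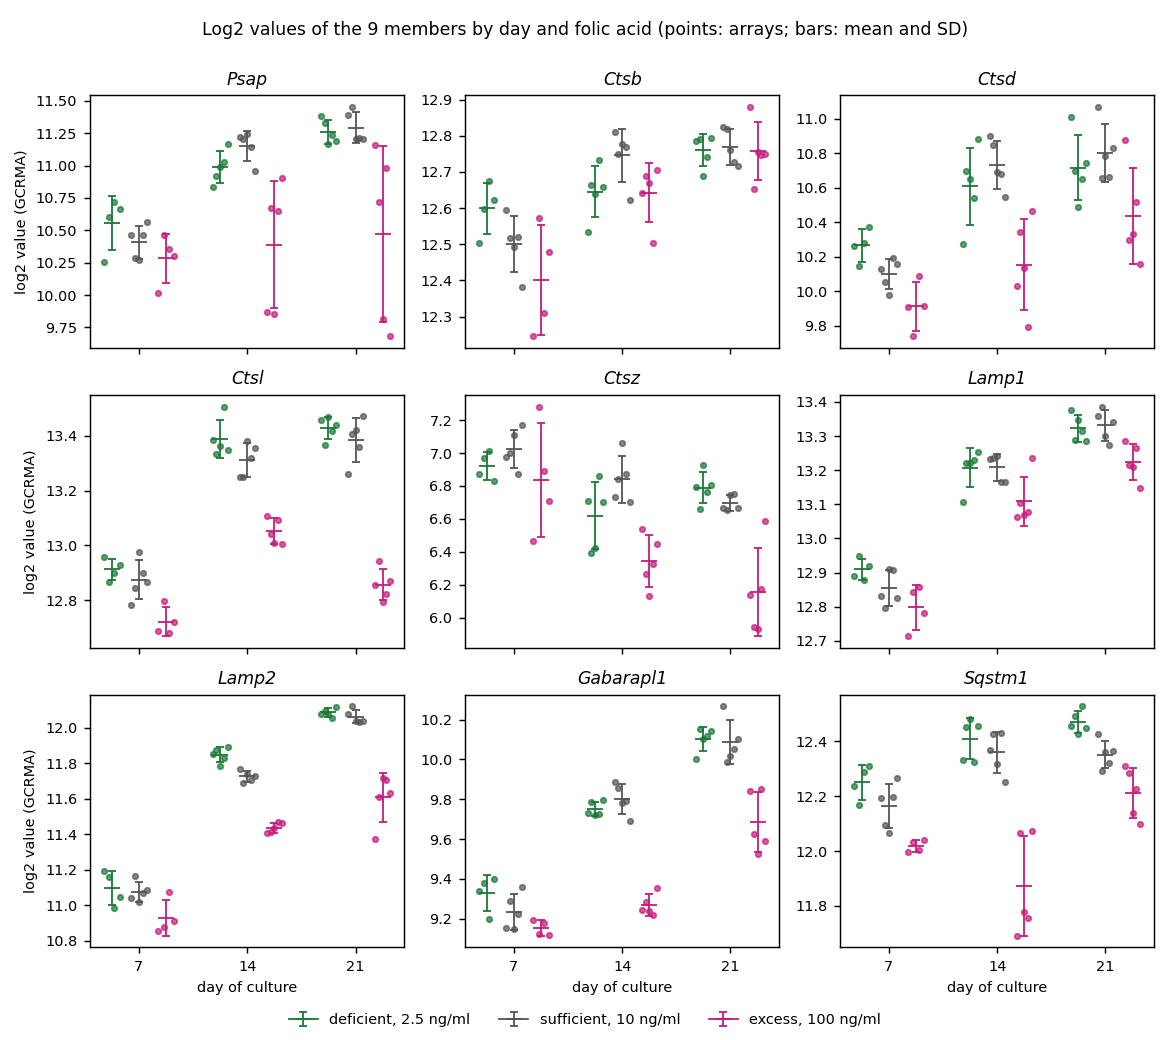
Log2 values of the 9 genes (y axis, a separate scale per gene) against day of culture (x axis) in deficient, sufficient and excess medium. Points are arrays, and bars give the mean and SD of the group. In 8 of the 9 genes values lay higher at day 21 than at day 7 in sufficient medium. At days 14 and 21 the excess mean was the lowest of the day in all 9 genes. For Ctsb its gap to deficient medium was very small. On both days the excess arrays of several genes overlapped those of another medium.

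All 9 genes changed with time in culture. In sufficient medium, 8 of the 9 rose by day 21 relative to day 7 and 1, Ctsz, fell, and for all 9 the arrays of the 2 days did not overlap. Of all genes tested, 29.6% rose, 33.1% fell and 43.7% did not overlap in this comparison. The median difference of the 9 genes was 0.51, against -0.02 over all genes tested.

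The membrane proteins rose with time. Lamp2, a heavily glycosylated protein of the lysosomal membrane that also serves autophagy, had 12.04, 12.04, 12.04, 12.08 and 12.12 in sufficient medium at day 21, against 11.02, 11.04, 11.07, 11.09 and 11.16 at day 7. The 2 sets of arrays lay far apart, and the spread within each was small. The difference was 0.99 ± 0.05 (SE), or 1.98-fold (limma, adjusted p = 2.0e-19), the largest of the 9 genes. At day 14 the 5 sufficient arrays lay between the other days, at 11.73 ± 0.03 (SD, n = 5). Lamp1, the related major protein of the same membrane, averaged 13.33 ± 0.05 at day 21 and 12.85 ± 0.05 at day 7 in sufficient medium (SD, n = 5 each), a difference of 0.48 ± 0.04 (adjusted p = 2.0e-12).

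Among the proteases, the aspartic protease Ctsd, which has a central part in protein digestion in the lysosome, averaged 10.80 ± 0.17 at day 21 and 10.10 ± 0.09 at day 7 in sufficient medium (SD, n = 5 each). It rose by 0.70 ± 0.12 (adjusted p = 2.8e-06). Ctsl, a cysteine endopeptidase that also acts outside the cell on matrix proteins, averaged 13.38 ± 0.08 at day 21 and 12.87 ± 0.07 at day 7, and rose by 0.51 ± 0.05 (adjusted p = 2.7e-12). Ctsb, a cysteine protease that also trims peptides from their carboxyl end, had the smallest range of group means of all 9 genes, 0.37, and still rose by 0.27 ± 0.06 (adjusted p = 8.6e-05). Ctsz, a carboxypeptidase of the same family, went the other way. Its 5 sufficient arrays lay at 6.65 to 6.75 at day 21, against 6.87 to 7.17 at day 7. It fell by 0.33 ± 0.11 (adjusted p = 0.010), which is the time difference in sufficient medium closest to the threshold: the adjusted p was 0.055 after quantile normalization and 0.064 after median centring.

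Psap encodes the precursor of the saposins, small proteins that present lipids to lysosomal enzymes. It had 11.20, 11.21, 11.21, 11.39 and 11.45 in sufficient medium at day 21, against 10.27, 10.28, 10.46, 10.46 and 10.56 at day 7. Every day 21 array lay above every day 7 array. The rise was 0.88 ± 0.19, or 1.85-fold (limma, adjusted p = 0.00011). Its standard error was wider than that of the other genes, and the excess arrays, among which Psap spread widely, share the estimate of the spread.

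Both autophagy genes rose too. Gabarapl1, an ATG8 protein that sits on autophagosome membranes and binds cargo receptors, averaged 10.09 ± 0.11 at day 21 and 9.24 ± 0.09 at day 7 in sufficient medium (SD, n = 5 each). The rise was 0.85 ± 0.06, or 1.80-fold (adjusted p = 1.9e-15). Sqstm1 encodes p62, a receptor that brings ubiquitinated cargo to ATG8 proteins and is itself degraded with it. It averaged 12.35 ± 0.05 at day 21 and 12.16 ± 0.08 at day 7, a rise of 0.19 ± 0.06 (adjusted p = 0.0072) that its second probe set did not show. Markers of other states moved with time as well: the summed linear level of 8 proliferation markers was 6632 to 6999 in sufficient medium at day 21, against 17343 to 19241 at day 7, and that of 11 skeletal muscle markers was 10547 to 11383, against 4801 to 6674. Of these 11 markers 7 passed the filter, and their linear sum mostly follows the brightest, Myh1 and Tnnc2. The part of these cell states in the time differences was not tested.

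The other media gave a like picture with some exceptions. In deficient medium 8 genes rose by day 21 relative to day 7, where 30.7% of all genes did, and Ctsz changed by -0.13 ± 0.12 (adjusted p = 0.34). In excess medium 7 genes rose and Ctsz fell by 0.68 ± 0.12 (adjusted p = 5.5e-06), where 34.6% of all genes rose and 25.4% fell. Sqstm1 was among the 7, but its second probe set averaged lower at day 21, at 10.33 against 10.79, with overlapping arrays. Psap changed by 0.19 ± 0.20 in excess medium (adjusted p = 0.43), and without the arrays of serials 53 to 56 it rose by 0.67 (adjusted p = 5.2e-06). At day 14, relative to day 7, 6 genes rose and 1 fell in deficient medium (background 19.4% and 26.2%), 8 rose in sufficient medium (19.9%), and 4 rose and 1 fell in excess medium (27.3% and 20.9%). In deficient medium Sqstm1 was among the 6, but its second probe set averaged 10.64 at day 14 against 10.91 at day 7, with overlapping arrays. The exceptions at day 14 in excess medium include both autophagy genes. Gabarapl1 differed by 0.11 ± 0.06 between days 14 and 7 there (adjusted p = 0.13), and Sqstm1 by -0.14 ± 0.06 (adjusted p = 0.060). In sufficient medium the same interval gave 0.57 ± 0.06 and 0.20 ± 0.06. Without serials 53 to 56, 6 genes passed in excess medium at day 14 relative to day 7. Of the exceptions, Psap was at 9.87 and 9.85 in serials 53 and 54, against 10.65 to 10.90 in the other excess day 14 arrays. Sqstm1 was at 11.69 and 11.78 in the same serials, against 11.76 to 12.07. Gabarapl1, at 9.24 and 9.24 against 9.22 to 9.36, and Ctsd, at 10.03 and 10.14 against 9.79 to 10.46, lay among the others.

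In deficient medium none of the 9 genes passed the threshold against sufficient medium at day 7, 14 or 21 in its main probe set (limma). Of all genes, 0%, 0.088% and 0.781% did. At an unadjusted p under 0.05 the counts were 0, 1 and 0 of 9, against 551, 787 and 1118 of 9095 genes. The differences lay between -0.10 and 0.16 at day 7, between -0.22 and 0.12 at day 14 and between -0.08 and 0.12 at day 21. Their 95% intervals, Psap left aside, lay within -0.34 and 0.42 at day 7, -0.45 and 0.23 at day 14 and -0.32 and 0.32 at day 21. Psap was less precise, with bounds from -0.55 to 0.56 over the days. The second probe set of Ctsl stood higher in deficient medium at day 21, at 10.47 to 10.58 against 10.22 to 10.32, without overlap. It averaged 10.36 against 10.17 at day 14, with overlapping arrays, and 9.24 in both media at day 7. At day 21, 4.39% of all genes did not overlap between these media.

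The gene with an unadjusted p under 0.05 was Lamp2 at day 14. It had 11.79, 11.83, 11.85, 11.88 and 11.89 in deficient medium, against 11.69, 11.71, 11.73, 11.74 and 11.77 in sufficient medium. The arrays did not overlap, but the gap was small, 0.12 ± 0.05 (adjusted p = 0.50), and 1.88% of all genes did not overlap in this comparison. Sqstm1 at day 21 was similar, at 12.43 to 12.53 in deficient medium and 12.29 to 12.42 in sufficient medium, a difference of 0.12 ± 0.06 (adjusted p = 0.43), where 4.39% of all genes did not overlap. Whether the effect of deficient medium changed with time was tested directly, and 0 of 9 genes passed for day 14 minus day 7 (background 0%) or day 21 minus day 7 (0.044%). The smallest adjusted p among the 9 genes was 0.45 for day 14 and 0.60 for day 21.

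Excess medium gave lower values. At day 7, 0 of 9 genes passed the threshold (limma, background 2.37%), although in the main probe sets all 9 differences from sufficient medium were negative, from -0.19 to -0.06. Of the 9 genes, 3 had an unadjusted p under 0.05, against 1538 of 9095 genes. The second probe set of Gabarapl1 averaged higher in excess medium, at 8.66 against 8.33, with overlapping arrays. Those of Ctsl, Lamp2 and Sqstm1 averaged lower. The median of all genes was -0.06 in this comparison and that of the 9 genes -0.15. Ctsl came closest, at -0.15 ± 0.05 (adjusted p = 0.083), and it passed without excess day 7 replicate 6 (-0.18, adjusted p = 0.038). Sqstm1 was the gene whose arrays did not overlap at day 7, with 12.03 and 12.04 in 2 of the excess arrays and slightly less in the other 2, against 12.07, 12.10, 12.19, 12.20 and 12.26 in sufficient medium. Its difference was -0.15 ± 0.06 (adjusted p = 0.23), and 4.63% of all genes did not overlap.

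At day 14, 7 of the 9 genes fell in excess medium and none rose, and the arrays of the 7 did not overlap with sufficient medium. Of all genes, 18.8% fell, 22.3% rose and 20.9% did not overlap. At day 21, 7 genes fell again, 5 of them without overlap, where 19.3% of all genes fell, 24.4% rose and 27.4% did not overlap. When serials 53 to 56 were left out, all but Ctsb and Lamp1 passed at day 14, and 5 genes passed at day 21, where Ctsd and Lamp1 lost their calls. The median difference of the 9 genes was -0.49 at day 14 and -0.40 at day 21, against 0.01 and 0.03 over all genes. In bulk RNA, fewer cells of a kind and less of the RNA per cell cannot be told apart. The comparisons of a day share their sufficient arrays, and the sufficient arrays also enter the time differences.

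**Figure D2:**
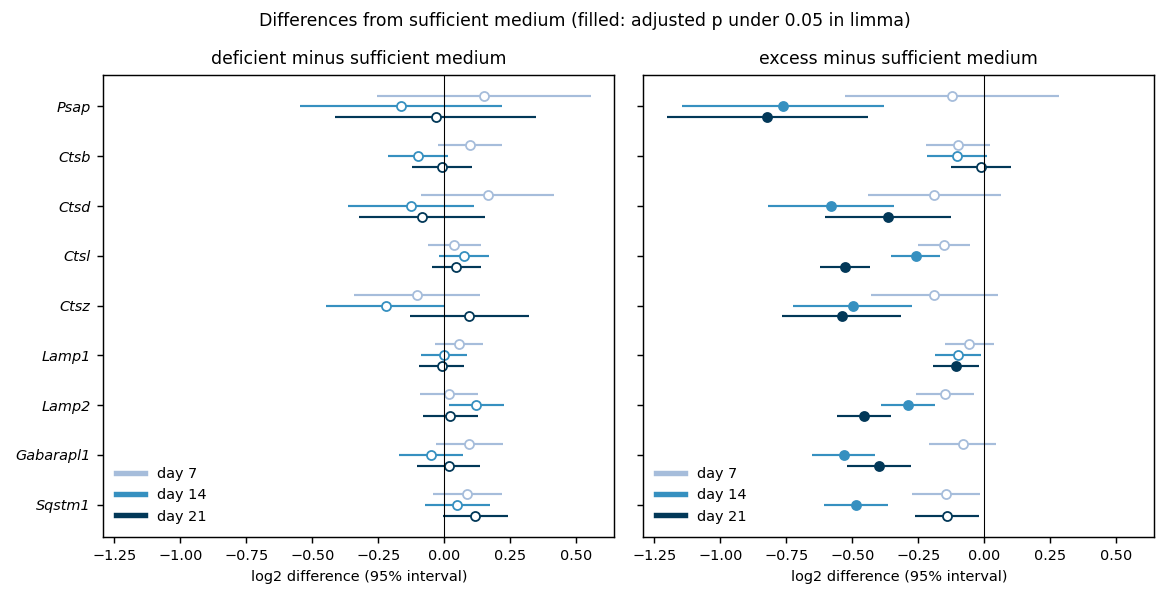
Log2 differences from sufficient medium (x axis) of the 9 genes (y axis), for deficient medium on the left and excess medium on the right, with the 3 days in 3 shades. Bars are 95% intervals from limma, and filled points passed an adjusted p of 0.05. No point is filled on the left, and 7 genes are filled at each of days 14 and 21 on the right.

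Gabarapl1 had the lowest adjusted p at day 14. Its arrays were 9.22, 9.24, 9.24, 9.29 and 9.36 in excess medium, against 9.69, 9.78, 9.79, 9.86 and 9.89 in sufficient medium. The excess arrays of day 14 stood where the sufficient arrays of day 7 had been (9.15 to 9.36). Gabarapl1 fell by 0.53 ± 0.06, or 1.45-fold, at day 14 (limma, adjusted p = 3.6e-09). At day 21 it was at 9.53, 9.59, 9.62, 9.84 and 9.85 in excess medium, against 9.99, 10.02, 10.05, 10.10 and 10.27 in sufficient medium, again without overlap, and fell by 0.40 ± 0.06 (adjusted p = 7.8e-07). It fell by 0.51 at day 14 and by 0.31 at day 21 without serials 53 to 56.

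Sqstm1 had 11.69, 11.76, 11.78, 12.07 and 12.07 in excess medium at day 14, against 12.25, 12.32, 12.37, 12.42 and 12.43 in sufficient medium. Excess medium at day 14 was its lowest group of all 9. It fell by 0.49 ± 0.06, or 1.40-fold (adjusted p = 4.2e-08), by 0.39 without serials 53 to 56 (adjusted p = 9.3e-06), and by 0.29 without the arrays whose beta-actin difference was above 2 (adjusted p = 0.0011). At day 21 the groups overlapped, at 12.10 to 12.31 in excess medium and 12.29 to 12.42 in sufficient medium. The difference of -0.14 ± 0.06 did not pass (adjusted p = 0.057), but it stood near the threshold. It passed with the stricter filter, quantile normalization, median centring, the mean of its probe sets, array series or array weights (adjusted p from 0.010 to 0.050), and without excess day 21 replicate 1 (0.033) or replicate 2 (0.046). It was at 0.34 without serials 53 to 56 and at 0.55 without beta-actin differences above 2.

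For Ctsl the day 21 difference was the firmest of the set. It had 12.79, 12.82, 12.86, 12.87 and 12.94 in excess medium, against 13.26, 13.36, 13.41, 13.42 and 13.47 in sufficient medium. The excess arrays at day 21 overlapped the sufficient arrays of day 7, at 12.78 to 12.98. Ctsl fell by 0.53 ± 0.05, or 1.44-fold (adjusted p = 4.4e-12), at day 21. At day 14 it was at 13.01 to 13.11 in excess medium and 13.25 to 13.38 in sufficient medium, and fell by 0.26 ± 0.05 (adjusted p = 2.4e-05). Without serials 53 to 56 the falls were 0.51 at day 21 and 0.27 at day 14.

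Ctsd behaved less evenly. At day 14 its arrays were 9.79, 10.03, 10.14, 10.34 and 10.46 in excess medium, against 10.55, 10.68, 10.69, 10.85 and 10.90 in sufficient medium. They did not overlap, and Ctsd fell by 0.58 ± 0.12 (adjusted p = 0.00016), and by 0.53 without serials 53 to 56. Without the arrays whose beta-actin difference was above 2 the value was -0.33 (adjusted p = 0.098). At day 21 one excess array, at 10.88, stood above 4 of the 5 sufficient arrays, and the other excess arrays were at 10.16, 10.29, 10.33 and 10.52. The fall of 0.36 ± 0.12 (adjusted p = 0.011) was lost without serials 53 to 56 (-0.24, adjusted p = 0.18), with serials up to 45 (adjusted p = 0.20), with beta-actin as a covariate (0.074), without beta-actin differences above 2 (0.29) and without excess day 21 replicate 5 alone (-0.30, adjusted p = 0.051).

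Ctsz, whose level also fell with time, was lowest in excess medium. At day 14 it had 6.13, 6.27, 6.33, 6.45 and 6.54 in excess medium, against 6.70, 6.73, 6.84, 6.87 and 7.06 in sufficient medium. At day 21 it had 5.93, 5.94, 6.14, 6.17 and 6.59, against 6.65, 6.66, 6.67, 6.74 and 6.75. Neither day overlapped, although the highest excess array of day 21 came near. The falls were 0.50 ± 0.11 at day 14 (adjusted p = 0.0005) and 0.54 ± 0.11 at day 21 (adjusted p = 0.00014), and 0.49 and 0.61 without serials 53 to 56. Ctsb was the protease that excess medium left nearest to sufficient medium. It differed by -0.10 ± 0.06 at day 14 (adjusted p = 0.14) and by -0.01 ± 0.06 at day 21 (adjusted p = 0.88), where the 95% interval ran from -0.13 to 0.10. It differed by -0.11 at day 14 and by -0.0091 at day 21 without serials 53 to 56.

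Of the membrane proteins, Lamp2 fell in its main probe set, while its second probe set was higher in excess medium. In the main probe set Lamp2 had 11.41, 11.41, 11.43, 11.47 and 11.47 in excess medium at day 14, against 11.69, 11.71, 11.73, 11.74 and 11.77 in sufficient medium, and fell by 0.29 ± 0.05 (adjusted p = 2.4e-05). At day 21 it had 11.38, 11.61, 11.63, 11.70 and 11.72, against 12.04 to 12.12, and fell by 0.46 ± 0.05, or 1.37-fold (adjusted p = 2.3e-09). The arrays did not overlap on either day, and without serials 53 to 56 the falls were 0.28 and 0.50. The second probe set averaged 11.22 in excess medium and 11.00 in sufficient medium at day 14, and 11.36 in excess medium and 11.21 in sufficient medium at day 21. With the mean of both probe sets the value was -0.033 at day 14 (adjusted p = 0.67) and -0.15 at day 21 (adjusted p = 0.031). Lamp1 differed by -0.10 ± 0.04 at day 14 (adjusted p = 0.060) and by -0.11 ± 0.04 at day 21 (adjusted p = 0.039), with overlapping arrays on both days. After quantile normalization the values were -0.019 (adjusted p = 0.72) and -0.049 (adjusted p = 0.33). The day 21 call was also lost without serials 53 to 56 (-0.077, adjusted p = 0.23), with the replicate numbers as a block (-0.10, adjusted p = 0.070), with no filter, serials up to 45, beta-actin as a covariate, the compared groups alone or no beta-actin difference above 2 (adjusted p from 0.062 to 0.30), and without any one of sufficient day 21 replicates 1, 3 and 6 or excess day 21 replicates 2, 3 and 5 (adjusted p from 0.063 to 0.11). At day 14 it was -0.070 without serials 53 to 56 (adjusted p = 0.29). It passed at day 14 with the stricter filter (0.047), median centring (0.029) and array weights (0.041), and without excess day 14 replicate 5 (-0.13, adjusted p = 0.014).

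Psap showed the largest differences and the widest spread. In excess medium it had 9.85, 9.87, 10.65, 10.68 and 10.90 at day 14, against 10.96, 11.15, 11.20, 11.22 and 11.24 in sufficient medium. At day 21 it had 9.68, 9.82, 10.72, 10.98 and 11.16 in excess medium, against 11.20, 11.21, 11.21, 11.39 and 11.45 in sufficient medium. All excess arrays lay below all sufficient arrays, and on both days 2 excess arrays stood far below the other 3. Those 4 arrays are serials 53 to 56. With all arrays Psap fell by 0.76 ± 0.19 at day 14 (adjusted p = 0.0015) and by 0.82 ± 0.19 at day 21 (adjusted p = 0.00051). Without the 4 arrays it fell by 0.41 (adjusted p = 0.0036) and by 0.34 (adjusted p = 0.012), so its size, though not its call, rested on them. With beta-actin as a covariate the Psap differences were -0.41 at day 14 (adjusted p = 0.047) and -0.50 at day 21 (adjusted p = 0.014). Without beta-actin differences above 2 they were -0.36 (adjusted p = 0.035) and -0.35 (adjusted p = 0.034). Within groups, Psap correlated with the beta-actin difference at r = -0.62 over 43 arrays, Sqstm1 at -0.60 and Lamp1 at -0.49, while Lamp2 was at 0.26 and Gabarapl1 at -0.22; the points share array and RNA sample, and the part of RNA quality in the excess values was not tested beyond the fits given.

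**Figure D3:**
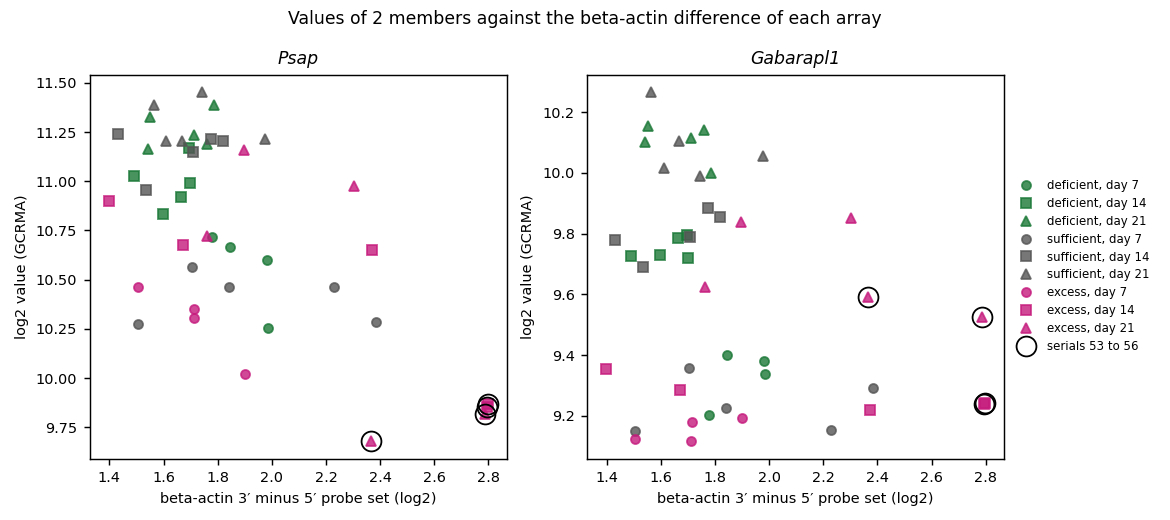
Log2 values (y axis) of Psap on the left and Gabarapl1 on the right against the beta-actin 3′ minus 5′ difference of the same array (x axis, log2). Colour marks medium, symbol marks day, and open circles mark serials 53 to 56. The 4 circled arrays have the lowest Psap values, 9.68 to 9.87, whereas for Gabarapl1 they lie among the other excess arrays of their day or just below them.

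Cell state markers moved with excess medium too. The 8 proliferation markers summed to 13534 to 15193 in excess medium at day 14, against 8197 to 9041 in sufficient medium, and to 11373 to 11627 at day 21, against 6632 to 6999. The 10 smooth muscle markers summed to 75080 to 78766 at day 14, against 82013 to 98640, and to 70647 to 74764 at day 21, against 82368 to 91756. The 11 skeletal muscle markers, 7 of which passed the filter, summed to 6143 to 7386 at day 14, against 8171 to 9806, and to 8933 to 10184 at day 21, against 10547 to 11383. The sums of the 11 macrophage markers overlapped between these media on both days. They were 137 to 179 in excess medium at day 14, against 136 to 155, and 150 to 162 at day 21, against 120 to 155. Of these markers 9 did not pass the filter, which left Cd14 and Cd74. The part of these cell states in the lower lysosomal values was not tested.

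Whether the effect of excess medium changed with time was tested as a difference of differences. From day 7 to day 14 it became more negative for Gabarapl1, by 0.45 ± 0.09 (adjusted p = 0.00027), and for Sqstm1, by 0.34 ± 0.09 (adjusted p = 0.0061), 2 of 9 genes where 4.67% of all genes did so. The Sqstm1 value was lost without serials 53 to 56 (-0.25, adjusted p = 0.053). From day 7 to day 21 it became more negative for Ctsl, by 0.37 ± 0.07 (adjusted p = 5.8e-05), for Lamp2, by 0.31 ± 0.07 (adjusted p = 0.0021), and for Gabarapl1, by 0.32 ± 0.09 (adjusted p = 0.0060), 3 of 9 where 7.53% of all genes did. Without serials 53 to 56 Gabarapl1 was at -0.23 (adjusted p = 0.061). For Psap the change was -0.70 ± 0.28 (adjusted p = 0.058). Without serials 53 to 56 it was -0.22 (adjusted p = 0.31). It passed with median centring, array series or array weights (adjusted p from 0.027 to 0.036), and without excess day 7 replicate 1 or excess day 21 replicate 1, 2 or 4 (adjusted p from 0.012 to 0.046).

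Deficient medium compared with excess medium gave differences of the same kind. At day 7, 2 genes were higher in deficient medium, Ctsl by 0.19 ± 0.05 (adjusted p = 0.024) and Sqstm1 by 0.23 ± 0.07 (adjusted p = 0.038), where 4.04% of all genes were. Leaving out 1 array at a time gave 0 to 3 genes past the threshold. At day 14, 7 genes were higher in deficient medium (background 16.9%), among them Sqstm1 by 0.54 ± 0.06 (adjusted p = 3.9e-09), Lamp2 by 0.41 ± 0.05 (adjusted p = 3.4e-08) and Ctsz by 0.28 ± 0.11 (adjusted p = 0.045). Of these, Psap lost its call without excess day 14 replicate 1 (0.47, adjusted p = 0.056) or 3 (0.46, adjusted p = 0.057), and Ctsz without any of 6 arrays. At day 21, 7 genes were higher (background 22.4%), among them Ctsl by 0.57 ± 0.05 (adjusted p = 3.1e-13), Ctsz by 0.64 ± 0.11 (adjusted p = 9.5e-06) and Sqstm1 by 0.26 ± 0.06 (adjusted p = 0.00048). The Lamp2 values are those of its main probe set. Its second probe set was lower in deficient than in excess medium, with differences of -0.23 ± 0.08 at day 14 and -0.16 ± 0.08 at day 21. Without serials 53 to 56 the counts were 5 genes at day 14 and 6 at day 21. Ctsd, at 0.28 ± 0.12 (adjusted p = 0.044), lost its call without serials 53 to 56 (0.15, adjusted p = 0.37). Lamp1 (0.10 ± 0.04, adjusted p = 0.054) and Ctsb (0.00 ± 0.06, adjusted p = 0.97) did not pass.

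Other probe sets of the same genes were read beside the main ones. Of the 17 probe sets, 13 passed the filter, which left a second one for Ctsl, Gabarapl1, Lamp2 and Sqstm1. For Ctsl it gave excess minus sufficient differences of -0.51 ± 0.07 at day 14 and -0.71 ± 0.07 at day 21, larger than the main probe set. For Gabarapl1 it gave -0.45 ± 0.14 and -0.41 ± 0.14 on these days, close to the main probe set. At day 7 it averaged higher in excess than in sufficient medium, at 8.66 against 8.33, opposite to the main one. The second probe set of Sqstm1 gave -0.61 ± 0.15 and -0.45 ± 0.15, the same direction as the main one, but for day 21 against day 7 in sufficient medium it gave -0.06 ± 0.15, where the main one rose. The second probe set of Lamp2 went the opposite way in excess medium. It averaged 11.22 ± 0.25 in excess medium and 11.00 ± 0.08 in sufficient medium at day 14, and 11.36 ± 0.19 in excess medium and 11.21 ± 0.08 in sufficient medium at day 21 (SD, n = 5 each), differences of 0.22 ± 0.08 and 0.15 ± 0.08. The fall of Lamp2 in excess medium therefore holds for 1 of its 2 probe sets, while its rise with time held for both, at 0.42 ± 0.08 for the second in sufficient medium. Which transcript each probe set reads is not given in the sources used here.

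**Figure D4:**
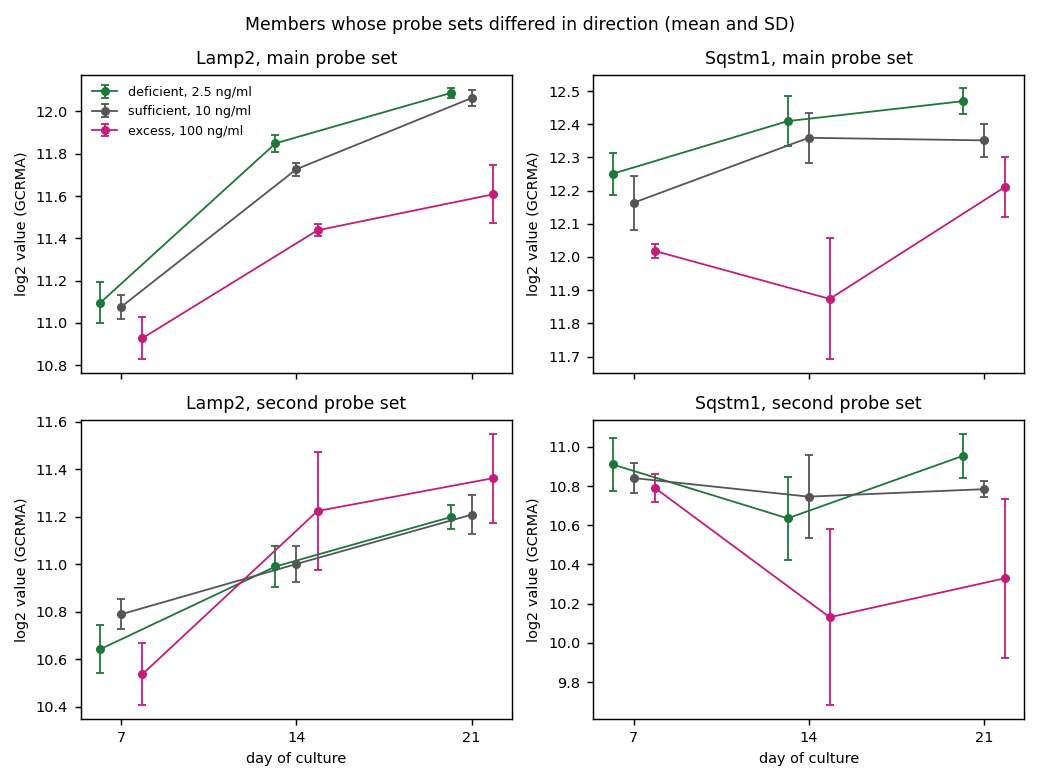
Group means and SDs of log2 values (y axis) by day (x axis) for the main probe set (top) and the second probe set (bottom) of Lamp2 (left) and Sqstm1 (right). In excess medium at days 14 and 21 the main Lamp2 probe set lies below sufficient medium and the second lies above it, at 11.22 and 11.36 against 11.00 and 11.21.

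The 9 genes varied together over the whole set of arrays more than within groups. Over 43 arrays the correlation of the 36 pairs had a median of 0.71 and ran from -0.35 to 0.94, with Lamp1 and Lamp2 at the top, and the 5 negative pairs all held Ctsz. After each group's mean was removed the median was 0.056 and the range -0.41 to 0.67, with 14 of the 36 pairs negative. The highest within-group values were those of Ctsd with Sqstm1 (0.67), Psap with Sqstm1 (0.64) and Psap with Lamp1 (0.59), and the lowest was that of Ctsd with Ctsl. The arrays share day and medium, so the first values mostly describe the 9 group means. The genes whose values over the 43 arrays were most like a member's were Gsta4 (r = 0.98), Myl4 (0.97) and Myl1 (0.97) for Lamp2. For Lamp1 they were Postn (0.97), Ptgds (0.96) and Ctsa (0.96), the last of which encodes another lysosomal enzyme. For Gabarapl1 they were Itm2b (0.96), Rnaset2 (0.95) and Hcfc1r1 (0.95), and for Ctsl Tspan2, Wls and Gng12 (0.94 each). Ctsd was closest to Ecm1 (0.89), Rabac1 (0.89) and Dpp7 (0.88), and Ctsb to Anxa5 (0.88), Vamp3 (0.86) and Fcgrt (0.86). Ctsz had Pdpn (0.84), Eif2s2 (0.84) and Pard6b (0.83), Psap had Ociad1, Fbxw11 and Rpl19 (0.87 each), and Sqstm1 had Eef1g (0.86), Eif4b (0.85) and Bex3 (0.85).

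To place the 9 genes in their pathway, 148 other lysosome and autophagy genes were read in 7 lists, of which 125 genes were tested. By day 21 in sufficient medium 70 (56%) rose and 10 (8%) fell relative to day 7, where 29.6% of all genes rose and 33.1% fell. All 10 proteases and inhibitors tested rose, with a median difference of 0.94, led by Ctsh, an aminopeptidase (1.48 ± 0.12), and Cpq, a plasma and lysosomal carboxypeptidase (1.34 ± 0.07). Of 24 glycosidases, lipases and sulfatases 18 rose, led by Naglu, which removes N-acetylglucosamine from heparan sulfate (1.48 ± 0.14), and Neu1, a sialidase (1.07 ± 0.12), and Acp2, an acid phosphatase, fell by 0.69 ± 0.10. Of 16 subunits of the vacuolar ATPase, the proton pump of the lysosome, 12 rose and 2 fell. Of 26 genes of autophagosome formation, 7 (26.9%) rose, a share below that of all genes, and 2 fell, with Atg4a, a protease that processes ATG8 proteins, at 2.03 ± 0.16. Of 10 other ATG8 proteins and cargo receptors 6 rose, led by the receptor Optn (1.22 ± 0.10). Of 15 membrane and sorting proteins 8 rose and 1, Igf2r, a receptor that sorts enzymes to lysosomes, fell by 0.56 ± 0.12. Of 24 nutrient and transcriptional regulators 9 rose and 4 fell, with Mitf, a relative of TFEB, at 1.52 ± 0.15 and Tsc2, a brake on mTORC1, at -0.65 ± 0.14.

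In deficient medium 0 of the 125 genes passed at any day, and at an unadjusted p under 0.05 the counts were 6, 8 and 11. In excess medium 9 fell and 0 rose at day 7, where 2.1% of all genes fell and 0.275% rose. At day 14, 43 (34.4%) fell and 11 (8.8%) rose, where 18.8% of all genes fell and 22.3% rose, and at day 21, 45 (36%) fell and 13 (10.4%) rose, where 19.3% fell and 24.4% rose. Counted in either direction, 54 of the 125 genes passed at day 14 and 58 at day 21. Without serials 53 to 56 these counts were 42 and 45, and falls and rises were not counted apart there. Of the 16 vacuolar ATPase subunits 12 fell and 0 rose at day 14, and 11 fell and 0 rose at day 21, among them Atp6v0e1 (-0.71 ± 0.09) and Atp6ap1 (-0.50 ± 0.09) at day 21. Of 24 glycosidases, lipases and sulfatases 12 fell and 0 rose at day 14 and 12 fell and 1 rose at day 21, with Naglu at -0.90 ± 0.14 and Arsb, a sulfatase of dermatan sulfate, at -0.87 ± 0.09 at day 21. Of 10 proteases 4 fell and 1 rose at day 14, and 6 fell and 1 rose at day 21, with Scpep1 at -0.45 ± 0.06 and Ctso at 0.45 ± 0.13. Among 15 membrane and sorting proteins 4 fell and 2 rose at day 21. Scarb2, the receptor that carries glucocerebrosidase to lysosomes, was at -0.93 ± 0.09, and Igf2r at 0.44 ± 0.12.

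The autophagy lists held genes that fell and genes that rose. Of 26 genes of autophagosome formation 4 fell and 3 rose at day 14, and 7 fell and 3 rose at day 21, with Atg13, part of the kinase complex that starts autophagy, at -0.37 ± 0.11 and Atg4a at 0.70 ± 0.16 at day 21. Of 10 other ATG8 proteins and cargo receptors 2 fell and 1 rose at day 14, and 1 fell and 1 rose at day 21. The gene that fell on both days was Bnip3, a mitophagy receptor, at -0.55 ± 0.10 and -0.82 ± 0.10, and the one that rose was Wdfy3, a large scaffold for aggregate clearance, at 0.42 ± 0.09 and 0.32 ± 0.09. Of 24 regulators 4 fell and 4 rose at day 14, and 4 fell and 5 rose at day 21. Sesn2, an amino acid sensor, was at -0.91 ± 0.14 and Rragc, a lysosomal GTPase, at -0.60 ± 0.11 at day 14, and Ddit4, an inhibitor of mTORC1, was at 0.65 ± 0.11 at day 21. The shares that fell in the 3 lists at day 14 were 15.4%, 20% and 16.7%, near the 18.8% of all genes. The shares that rose were 11.5%, 10% and 16.7%, below the 22.3% of all genes. At day 21, 26.9%, 10% and 16.7% fell, against 19.3% of all genes, and 11.5%, 10% and 20.8% rose, against 24.4%. No list was tested against other genes.

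**Figure D5:**
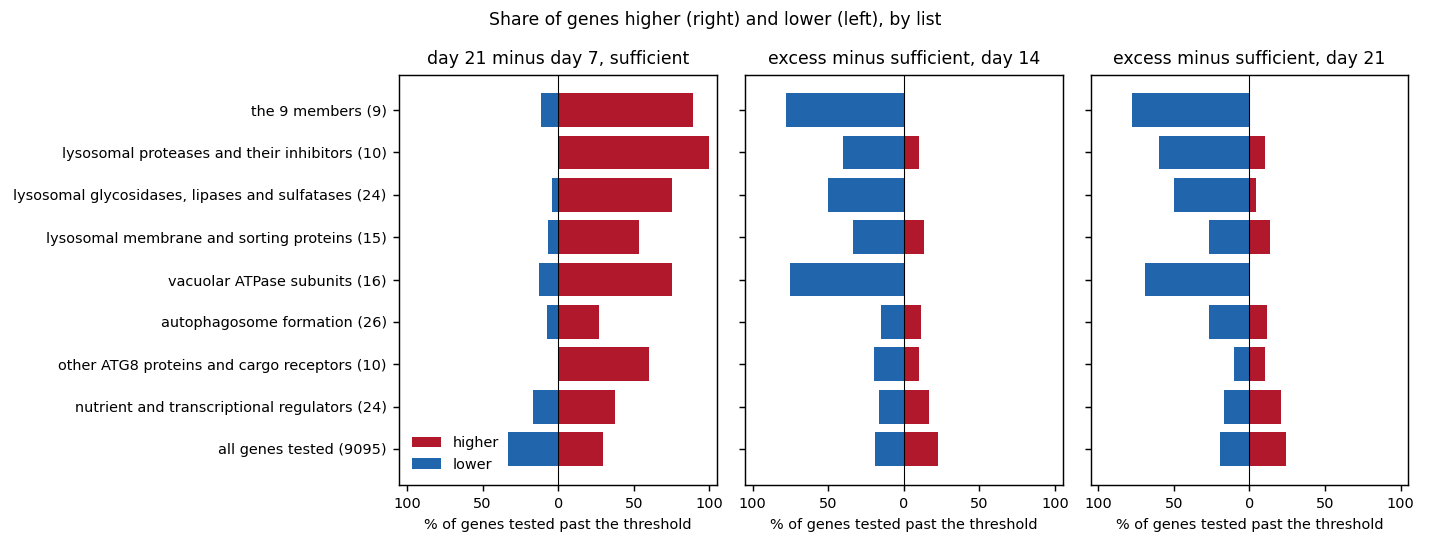
Share of tested genes (x axis, percent) that passed an adjusted p of 0.05 as higher (right of 0) or lower (left of 0), for the 9 genes, the 7 lists of other lysosome and autophagy genes and all genes tested, with the number of genes in brackets. The panels show day 21 against day 7 in sufficient medium, and excess against sufficient medium at days 14 and 21. In the excess panels, 12 and 11 of 16 vacuolar ATPase subunits lie on the lower side, while the regulators are split between both sides.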

How the data were processed

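Total RNA of A7r5 cells was labelled with biotin and hybridised to Affymetrix Rat230_2 arrays, per the labels' protocols. The deposited values are on the log2 scale and were made by the authors with GCRMA, per the submitters' processing notes, which also name limma and give no version of either. GCRMA corrects background by probe sequence, normalizes arrays by quantiles and summarizes each probe set, so a low value is close to background and its fold changes are understated. Values lay between 0.84 and 15.0, array medians between 3.66 and 3.72 and replicate correlations between 0.991 and 0.998, and 0 pairs of arrays were identical. The number of arrays limits the precision.

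Probe sets were named from the platform annotation (20832 with 1 symbol, 436 with several, 9831 with none), with symbols checked through the gene identifier (20764 matched, 68 not). A probe set was kept if above 4 in at least 4 arrays, and 57 control probe sets were left out. The 9095 genes, each by its probe set of highest mean, were fitted with limma 3.58.1 in R 4.3.3 as 9 group means over 43 arrays (34 residual degrees of freedom), with two-sided tests, Benjamini-Hochberg adjustment over all genes and a threshold of 0.05. Errors of differences are standard errors of that fit. The 9 genes, the lists and the markers were chosen with earlier results of these data known. All 9 genes are named for the change with time by day 21 in sufficient medium, and for excess against sufficient medium at the later days. In the other comparisons only some of the 9 are named, and the rest are covered by counts or ranges. From each list up to 2 of the highest and 2 of the lowest differences past the threshold are named. Tested on simulated data for excess against sufficient medium at day 21 with 9095 genes, the fit recovered 24% of genes changed by 0.25, 80% by 0.5, 98% by 1 and 100% by 2 on the log2 scale, with 9 false calls. The simulation drew independent noise and changed 50 genes of each size, a far smaller share than was called in the data. Its figures therefore need not hold for the real comparison. Alternatives were the filter, quantile normalization, median centring, the mean of a gene's probe sets, array series, serials up to 45, the replicate number, beta-actin, array weights, a fit of the compared groups, and leaving out each array. The sets without serials 53 to 56 and without beta-actin differences above 2 were chosen after seeing the data. Promoters are from RefSeq (GRCr8). Python 3.11.15, pandas 2.3.3, numpy 2.4.6 and matplotlib 3.10.9 were used.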

Additional observations from a re-analysis of the deposited data

Results flagged for a closer look

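In groups of 4 or 5 arrays, 3 of 81 sets of values held an array far from its neighbours by Dixon's criterion, where chance flags about 1 in 20. Ctsl in deficient medium at day 14 was at 13.51 in replicate 5, against 13.33 to 13.38 in the other 4 arrays. Lamp1 in deficient medium at day 14 was at 13.11 in replicate 1, against 13.22 to 13.25 in the others. Lamp1 in excess medium at day 14 was at 13.23 in replicate 5, against 13.06 to 13.10 in the others, and its difference from sufficient medium passed the threshold without that array.

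The effect of excess medium differed between days, by limma's test of the difference itself, for 5 pairs of gene and day. From day 7 to day 14 the change was -0.45 for Gabarapl1 and -0.34 for Sqstm1. From day 7 to day 21 it was -0.37 for Ctsl, -0.31 for Lamp2 and -0.32 for Gabarapl1. The Lamp2 value belongs to its main probe set, and the second one gave 0.41 ± 0.12.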

How the results depend on the processing

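Over the 171 comparisons of the 9 genes, 80 passed the threshold, 58 of them in every setting tried, and 22 were lost in at least 1. Of the 91 that did not pass, 25 passed in at least 1. With the mean of a gene's probe sets 3 values changed sign: Sqstm1 from day 7 to day 14 in deficient medium (-0.058), Sqstm1 from day 7 to day 21 in excess medium (-0.135) and the change of the excess effect of Lamp2 by day 21 (0.049), as the construction of a mean over opposed probe sets gives.

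Counts are listed here as moved if they changed by more than 1.5-fold, or to or from 0, and smaller changes are left out. One such change is 7 to 5 for excess against sufficient medium at day 21 without serials 53 to 56. Counts of the 9 genes moved as follows, and the cause was not tested. For excess against sufficient medium at day 7 (0) the count was 1 with array series, serials up to 45 or array weights. For deficient against excess medium at day 7 (2) it was 1 with no filter or the replicate block, 0 with quantile normalization, median centring, the mean of probe sets or the compared groups alone, and 7 with array weights; at day 14 (7) it was 4 without beta-actin differences above 2. For the change of the excess effect by day 14 (2) it was 5 with median centring, 4 with array weights, and 1 with serials up to 45, beta-actin as a covariate, the compared groups alone or either left-out set; by day 21 (3) it was 5 with median centring.

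Counts of the 125 other genes moved too, by the same rule. In deficient against sufficient medium they were 1 at day 14 with array weights, and at day 21 1 with the mean of probe sets or the compared groups alone, 2 with serials up to 45 and 3 with array series or array weights (0 as reported). In excess against sufficient medium at day 7 (9) they were 5 with quantile normalization or the replicate block, 2 with median centring, 15 with array series, 20 with serials up to 45, 27 with array weights, 1 without beta-actin differences above 2 and 0 with the compared groups alone. At day 14 (54) they were 34 with serials up to 45 and 35 without beta-actin differences above 2, and at day 21 (58) 35 without them. In deficient against excess medium at day 7 (14) they were 8, 7, 24, 46 and 4 with quantile normalization, median centring, serials up to 45, array weights and the compared groups alone, and without beta-actin differences above 2 they were 29 at day 14 (54) and 40 at day 21 (67). From day 7 to day 14 in excess medium they were 41 without beta-actin differences above 2 (74).

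Leaving out each array in turn gave these counts of the 9 genes: 0 to 1 for excess against sufficient medium at day 7, 7 to 8 for excess against sufficient medium at day 14, 5 to 8 for excess against sufficient medium at day 21, 0 to 3 for deficient against excess medium at day 7, 5 to 8 for deficient against excess medium at day 14, 6 to 8 for deficient against excess medium at day 21, 4 to 7 for day 14 against day 7 in deficient medium, 7 to 8 for day 21 against day 7 in deficient medium, 5 to 6 for day 14 against day 7 in excess medium, 7 to 8 for day 21 against day 7 in excess medium, 2 to 4 for the change of the excess effect by day 14, 3 to 5 for the change of the excess effect by day 21. The counts of the 125 other genes were 3 to 17 for excess against sufficient medium at day 7, 46 to 55 for excess against sufficient medium at day 14, 52 to 64 for excess against sufficient medium at day 21, 7 to 20 for deficient against excess medium at day 7, 49 to 56 for deficient against excess medium at day 14, 59 to 70 for deficient against excess medium at day 21, 50 to 57 for day 14 against day 7 in deficient medium, 73 to 79 for day 21 against day 7 in deficient medium, 60 to 64 for day 14 against day 7 in sufficient medium, 76 to 80 for day 21 against day 7 in sufficient medium, 65 to 72 for day 14 against day 7 in excess medium, 79 to 85 for day 21 against day 7 in excess medium. The count did not change in the other comparisons of the 9 genes or between deficient and sufficient medium for the 125, whose changes of effect with time were not run.

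The replicate numbers of the titles did not pair the samples: 133 pairs of arrays with the same number had a mean correlation of deviations of -0.004, 688 pairs with different numbers one of 0.001, and 9 of 43 arrays correlated best with their own number. With the replicate number as a block, excess against sufficient medium gave 7 genes at day 14 and 6 at day 21.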
